A study of Homo sapiens with 2 samples.

Results

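The genes described here are the molecular chaperones of human A2780 cells: the heat shock proteins of the HSP70, HSP110, HSP90, HSP60 and small classes, the J-domain proteins, the cytosolic chaperonin CCT and prefoldin. They were picked by gene symbol among protein-coding rows, with no use of their levels, which gave 87 of 58735 deposited rows. HSPA14 stood in 2 of those rows, so the set held 86 of 57169 gene symbols. Of the 86, 72 averaged 1 FPKM or more and are called measured below. FPKM is a fragment count scaled to gene length and to library size. The length used covers all annotated exons of a gene together, not the transcripts present in these cells. Levels, ranks and shares across different genes are therefore rough, while ratios between the libraries for 1 gene do not depend on length.

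A2780 is an established human ovarian cancer cell line. One library came from cells labelled shControl, with a wild-type genotype label and an empty vector according to the design text. The other came from cells labelled shJAM3, in which the adhesion gene JAM3 was the target of a stable knockdown. The design text names siRNA where the titles have sh, and the sources used here do not say whether either population was a clone. Both were grown under standard conditions to logarithmic phase, the labels name no stress treatment, and each is represented by 1 library.

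JAM3, the targeted gene, had 18 fragments in shControl and 14 in shJAM3 for a ratio of 0.716 with an exact 95% interval of 0.330 to 1.52. The lower bound lies just above the level that the knockdown efficiency stated in the design text would leave. The interval also includes an equal level. NCAPD3, transcribed from the other strand, overlaps 8.53% of the JAM3 exon sequence. No strand-marking step is described, so some of these few fragments may belong to NCAPD3. By counting error alone the stated level lies outside the interval. With so few fragments and a possible share from NCAPD3, the counts do not settle whether the stated knockdown was reached. Below, shControl and shJAM3 mean the libraries labelled so. Fragments assigned to genes numbered 15570262 in shControl and 16455079 in shJAM3. The epithelial keratins KRT8, KRT18 and KRT7 lay between 93.4 and 165 FPKM, while the carcinoma markers EPCAM, CDH1 and WT1 were below 1 FPKM in both libraries. PAX8 had 1.12 and 0.527 FPKM, and MUC16 had 0.475 and 1.07. The leukocyte markers PTPRC, CD3E and CD68 had at most 4 fragments in either library, and the endothelial markers CDH5 and PECAM1 were below 1 FPKM. Mesenchymal and fibroblast markers were expressed. With shControl given first, VIM reached 44.9 and 50.2 FPKM, COL1A1 13.5 and 11.3, and PDGFRB 3.79 and 2.99. Intervals given for ratios cover counting error only, with 1 library per group. Fewer cells with a transcript and less of it per cell cannot be told apart in bulk RNA.

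Chaperones bind unfolded or partly folded proteins and help them fold, assemble, cross membranes or reach degradation. HSP70 proteins work in cycles of ATP binding and hydrolysis: a J-domain protein delivers the client and stimulates hydrolysis, and a nucleotide exchange factor such as an HSP110 protein resets the cycle. HSP90 acts later on kinases, steroid receptors and other clients, prefoldin hands actin and tubulin to the ring-shaped CCT, and HSP60 with its lid HSP10 folds proteins inside mitochondria. Heat and proteotoxic stress induce many of these genes through the transcription factor HSF1, while stress in the endoplasmic reticulum induces others through the unfolded protein response.

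The 2 DNA elements behind these responses were looked up in RefSeq promoters (GRCh38.p14, 250 bases before to 50 after each start), which were at hand for 76 of the 86 genes. The search was chosen after the expression values had been seen. The first element was the heat shock element with 3 alternating units, GAANNTTCNNGAA on either strand. Of all promoters it was present in 172 of 35116 promoters (0.490%). Counted by gene, that is 0.608% of all genes with a promoter, and 7 of the 76 chaperones (9.21%) held it. Its matches are shown because they fall on the cytosolic HSP90 genes and HSPA8, which had the highest ratios among the measured genes of their classes. Capitals mark the matched letters, 5′ to 3′ on the gene's strand.
HSP90AA1, chr14:102087112-102087140, minus strand: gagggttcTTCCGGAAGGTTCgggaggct
HSP90AB1, chr6:44247770-44247798, plus strand: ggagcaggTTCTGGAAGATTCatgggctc
HSP90AB1, chr6:44247823-44247851, plus strand: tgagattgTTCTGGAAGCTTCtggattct
HSPA8, chr11:123062346-123062374, minus strand: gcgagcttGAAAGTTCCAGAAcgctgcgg
HSPA8, chr11:123062171-123062199, minus strand: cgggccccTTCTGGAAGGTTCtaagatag
HSPD1, chr2:197500063-197500090, minus strand: gcattTTCTGGAAAGTTCTGGAAccgag
HSPA6, chr1:161524458-161524486, plus strand: cggaaaggTTCGCGAAAGTTCgcggcggc
DNAJA1, chr9:33025268-33025296, plus strand: gccgggcgGAACTTTCCAGAAcgctcggt
DNAJB6, chr7:157336865-157336893, plus strand: agagccgaGAACCTTCGCGAAggtggggc

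The second was the endoplasmic reticulum stress element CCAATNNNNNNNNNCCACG on either strand. It was present in 27 of the 35116 promoters (0.0769%), and among the chaperones in those of HSPA5 and HSP90B1 alone. These encode BiP and GRP94, the HSP70 and HSP90 of the endoplasmic reticulum lumen.
HSPA5, chr9:125241386-125241414, minus strand: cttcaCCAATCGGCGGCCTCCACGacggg
HSP90B1, chr12:103930211-103930239, plus strand: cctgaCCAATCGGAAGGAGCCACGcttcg
HSP90B1, chr12:103930316-103930344, plus strand: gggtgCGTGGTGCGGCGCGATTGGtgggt

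Chaperone transcripts together took a larger share of fragments in the library labelled shJAM3, but the classes differed. The 86 genes took 1.18% of all fragments in shControl and 1.51% in shJAM3. With shControl given first, the measured genes had 183014 and 248173 fragments. Of these HSP90 held 39978 and 71997, CCT 42441 and 59279, and the J-domain genes 32261 and 36373. On the scale log2(FPKM + 1), which is used for every log2 ratio below, 46 of the 72 measured genes were higher in shJAM3 and 26 lower, against 49.4% higher and 50.6% lower among the 10499 measured protein-coding genes. The median log2 ratio of shJAM3 to shControl was 0.13 for the chaperones and -0.01 for all measured protein-coding genes. Higher ratios were found throughout HSP90, HSP60 with HSP10, and CCT. Prefoldin, HSP70 and the J-domain classes A and C had medians between 0.07 and 0.11, HSP110 had one of 0.25, and the small heat shock proteins and J-domain class B had medians below 0.

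**Figure D1:**
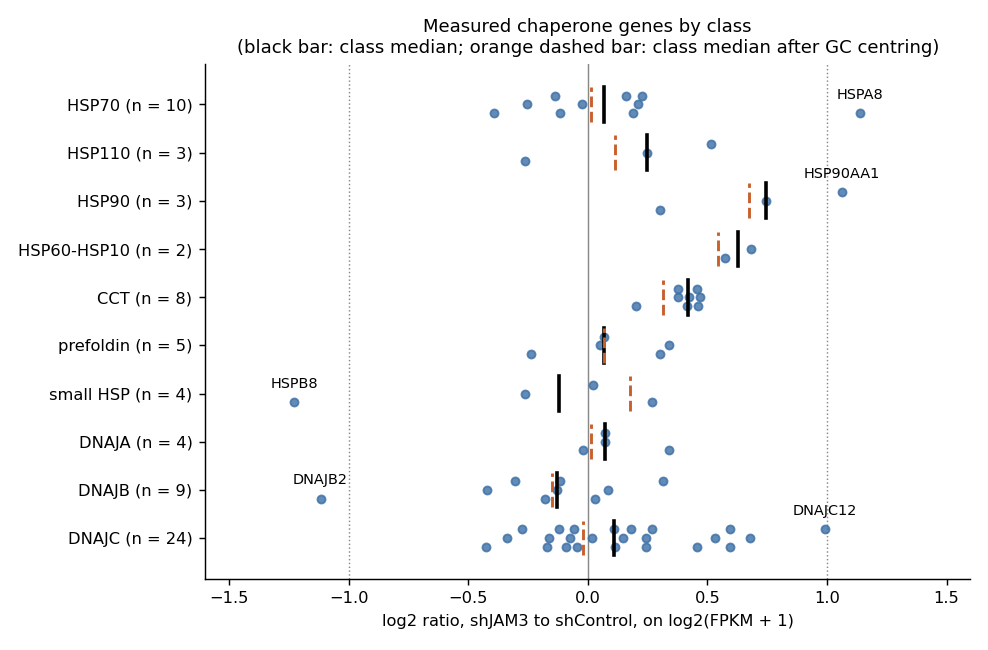
Log2 ratio of shJAM3 to shControl on log2(FPKM + 1) for each of the 72 measured chaperone genes (points), by class; black bars are class medians, dashed bars class medians after centring on transcript GC content, and dotted lines the 2-fold rule. All 8 CCT genes lie to the right of 0, between 0.20 and 0.47, while 6 of 9 DNAJB genes lie to the left.

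Ratios in these libraries moved with the GC content of transcripts, so a second value is given for each class. Across 10496 measured protein-coding genes the correlation of the log2 ratio with the GC content of the longest GENCODE 29 transcript was r = -0.50, over genes that share the same pair of libraries. The median log2 ratio was 0.24 in the lowest of 20 GC bins and -0.50 in the highest. The measured chaperones had a median GC content of 45.8%, against 49.1% for all measured protein-coding genes. With each gene centred on its GC bin, the chaperone median was 0.05, with 43 genes above 0 and 28 below, against 49.9% above 0 among all measured protein-coding genes. The part of GC content in the result was not tested beyond this centring.

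**Figure D2:**
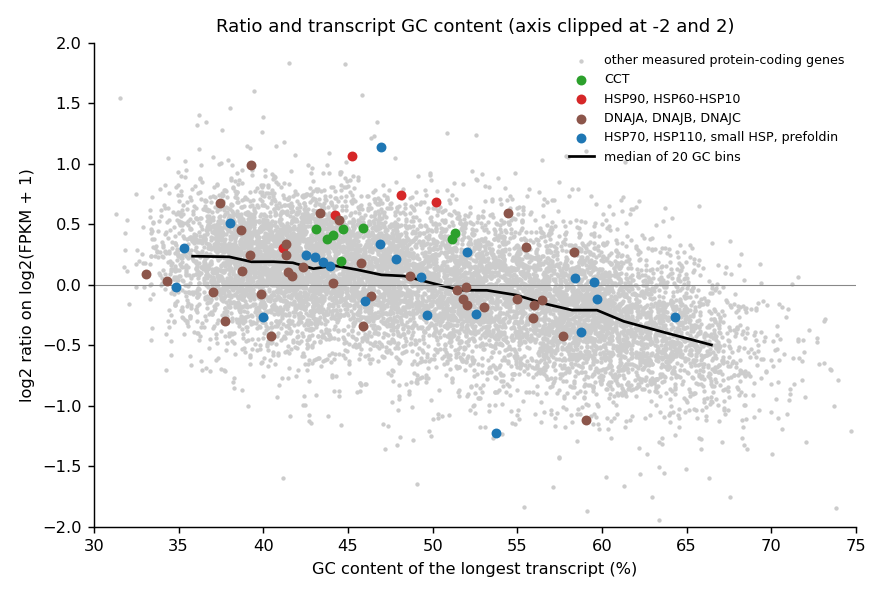
Log2 ratio on log2(FPKM + 1) against GC content of the longest transcript, for measured protein-coding genes (grey) and chaperones (coloured by groups of classes); the line joins medians of 20 GC bins. The line runs from 0.24 to -0.50, and the HSP90, HSP60-HSP10 and CCT points all lie above it.

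By a size rule of at least 2-fold on the log2(FPKM + 1) scale, 2 chaperones were higher in shJAM3 (HSPA8 and HSP90AA1) and 2 were lower (HSPB8 and DNAJB2). The same rule took 0.391% of measured protein-coding genes on the higher side and 1.41% on the lower side, or 1.8% in all. HSP90AA1, at a log2 ratio of 1.06, lay just inside the rule, and DNAJC12, at 0.99, just outside it. After GC centring HSPA8 (1.06) and HSPB8 (-1.18) were past the rule, which then took 0.324% of measured protein-coding genes on the higher side and 0.705% on the lower, while HSP90AA1 was at 0.94 and DNAJB2 at -0.91. The counting interval of the FPKM ratio lay above 1 for 33 of the 72 chaperones and below 1 for 17. Such intervals were common, at 34.5% of all measured protein-coding genes above 1 and 36.8% below, or 71.3% in all.

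**Figure D3:**
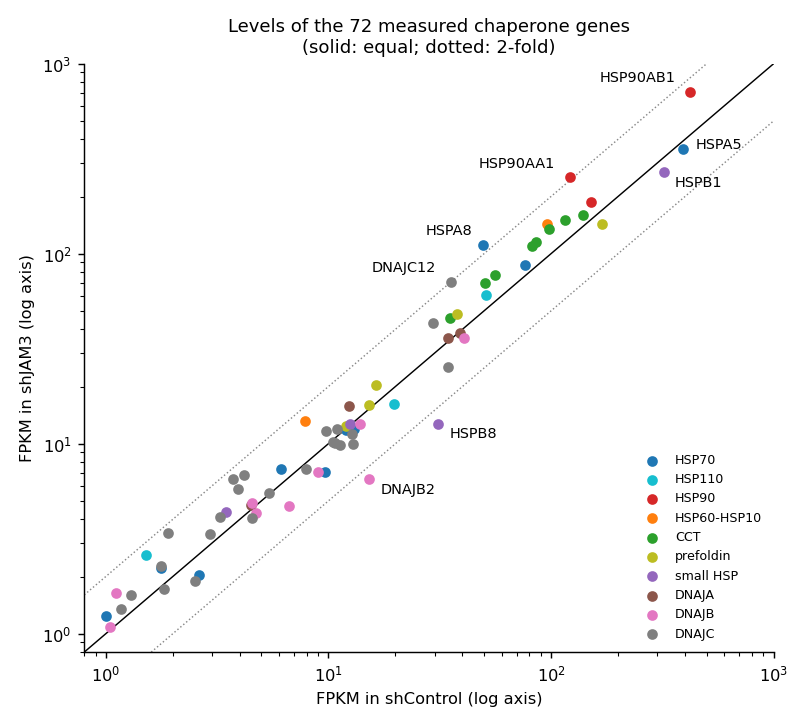
FPKM in shJAM3 against FPKM in shControl, both on log axes, for the 72 measured chaperone genes coloured by class; the solid line marks equal levels and dotted lines 2-fold differences. HSPA8, HSP90AA1 and DNAJC12 lie at or just beyond the upper dotted line, and HSPB8 and DNAJB2 beyond the lower one.

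All 3 HSP90 genes were higher in shJAM3. HSP90AB1, the constitutive cytosolic HSP90-beta, was the most abundant chaperone transcript, at 421 FPKM in shControl and 706 in shJAM3 for a ratio of 1.68 (1.65 to 1.71). HSP90AA1, the stress-inducible HSP90-alpha on chromosome 14, was at 121 and 254 FPKM for a ratio of 2.10 (2.05 to 2.15). It shares 3.75% of its exon bases with WDR20 on the opposite strand, and the library protocol describes no step that marks the strand. HSP90AA1 made up 22.4% of the cytosolic HSP90 FPKM in shControl and 26.5% in shJAM3, so the larger part stayed HSP90AB1. The reticulum paralogue HSP90B1 differed less, with 152 and 187 FPKM for a ratio of 1.23 (1.20 to 1.26), and a log2 ratio of 0.30, or 0.11 after GC centring. The class median was 0.74, or 0.67 after GC centring.

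Among the HSP70 genes HSPA8 stood apart from the rest. HSPA8 encodes HSC70, the constitutive HSP70 of the cytosol, and lies on chromosome 11 at 123057489 to 123063230 (GRCh38). It had 49.7 FPKM in shControl and 110.7 in shJAM3 for a ratio of 2.23 (2.14 to 2.32), the highest of the measured chaperones. Both of its neighbours in the order of HSP70 levels in shControl behaved otherwise. The mitochondrial HSPA9 (mortalin) had 76.8 and 87.6 FPKM for a ratio of 1.14 (1.11 to 1.17), and HSPA1A had 13.1 and 12.0. HSPA8 thus ranked below HSPA9 in shControl and above it in shJAM3.

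The stress-inducible HSPA1A and HSPA1B were not higher as HSPA8 was. The ratio of HSPA1A was 0.917 (0.808 to 1.04) and that of HSPA1B 0.737 (0.631 to 0.860). These neighbours on chromosome 6 encode nearly the same protein and their fragments can be split between them, so either value is uncertain, and HSPA1B also shares 36.5% of its exon bases with an annotated non-coding transcript on the same strand. HSPA1L, a related gene beside them, had 102 and 86 fragments for a ratio of 0.777 (0.576 to 1.04). Of the cytosolic HSP70 FPKM, HSPA8 contributed 65.0% in shControl and 82.6% in shJAM3. The summed level of HSPA8, HSPA1A, HSPA1B, HSPA1L, HSPA2 and HSPA6 was 76.4 FPKM in shControl and 134 in shJAM3. HSPA6, a strictly inducible HSP70, was below the measured level with 13 and 37 fragments for a ratio of 2.62 (1.36 to 5.37).

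**Figure D4:**
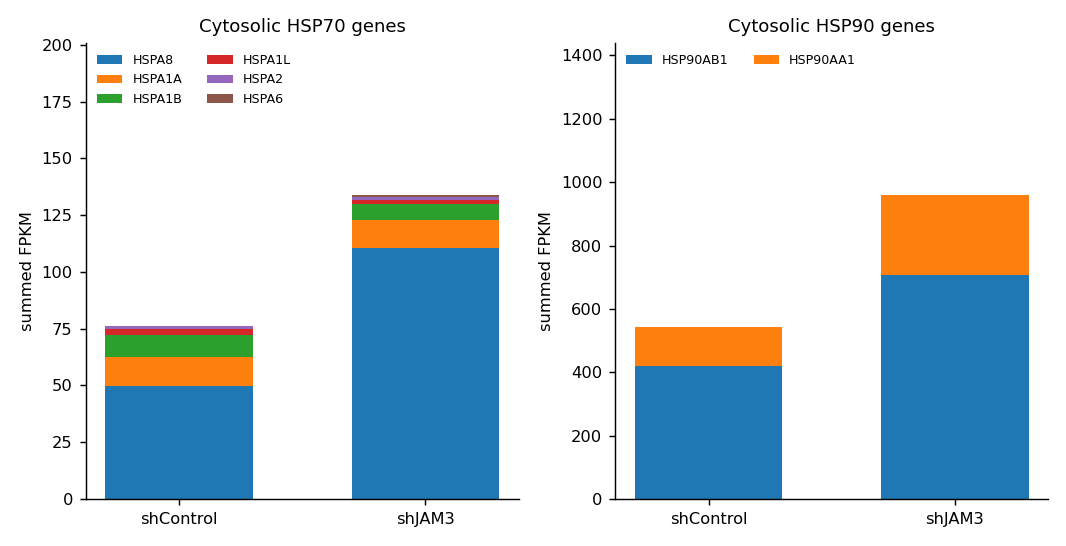
Summed FPKM of the cytosolic HSP70 genes (left) and the cytosolic HSP90 genes (right) in each library, as stacked bars from 0 with 1 colour per gene; no error can be shown with 1 library per group. HSPA8 fills 65.0% of the HSP70 bar in shControl and 82.6% in shJAM3.

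HSPA5, the second most abundant chaperone transcript in both libraries, was slightly lower, at 392 FPKM in shControl and 356 in shJAM3 for a ratio of 0.908 (0.892 to 0.925). HSPA13, a microsomal HSP70 relative, had a ratio of 0.983 (0.890 to 1.09). HSPA14, which binds ribosomes together with the J-domain protein DNAJC2, had 6.16 and 7.37 FPKM for a ratio of 1.20 (1.01 to 1.42). Its other deposited row had 5.29 and 6.44 FPKM, and the rows share exon bases. HSPA12A and HSPA2 were low, at 1.00 to 2.20 FPKM, with ratios of 1.24 (1.07 to 1.44) and 1.23 (0.928 to 1.64). Of the 10 measured HSP70 genes 5 were higher and 5 lower. Their median was 0.07, or 0.01 after GC centring.

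The HSP110 proteins, which act as exchange factors for HSP70, went both ways. HSPA4 had 51.2 and 60.9 FPKM for a ratio of 1.19 (1.14 to 1.24), and the low HSPA4L had 1.52 and 2.60 FPKM for a ratio of 1.71 (1.47 to 1.99). HSPH1, the heat-inducible member, had 19.7 and 16.2 FPKM for a ratio of 0.824 (0.778 to 0.872). The ratio of HSPA8 to HSPH1 FPKM was 2.52 in shControl and 6.83 in shJAM3.

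Both genes of the mitochondrial chaperonin were higher in shJAM3. HSPD1, which encodes HSP60, had 95.9 and 143 FPKM for a ratio of 1.49 (1.45 to 1.54). HSPE1, which encodes HSP10, had 7.87 and 13.2 FPKM for a ratio of 1.68 (1.43 to 1.98). The genes lie head to head on chromosome 2, and HSPE1 shares 23.9% of its exon bases with HSPD1 and with the read-through gene HSPE1-MOB4. Fragments from the shared stretch cannot be assigned, so the HSPE1 level is uncertain. Their median log2 ratio was 0.63, or 0.54 after GC centring.

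The ratios of the CCT genes lay close together. The CCT ring is built from 8 different subunits, and all 8 genes were higher in shJAM3, each beyond counting error. Among all measured protein-coding genes 34.5% lay above counting error. CCT5 was the most abundant, at 139 and 159 FPKM, and TCP1, which encodes the alpha subunit, the least, at 35.3 and 46.1. Between them lay CCT3 (116 and 151 FPKM), CCT4 (98.4 and 136), CCT7 (86.1 and 116), CCT6A (82.1 and 109.7), CCT8 (56.0 and 77.5) and CCT2 (50.5 and 70.2).

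Apart from CCT5, the subunit ratios lay close together. They ran from 1.30 (1.26 to 1.34) for CCT3 to 1.39 (1.33 to 1.45) for CCT2. The interval of CCT2 overlapped that of every other subunit except CCT5. CCT5 was lower than the other subunits at 1.15 (1.12 to 1.18). It is also the subunit with most overlap, since 30.1% of its exon bases lie under an antisense gene. CCT4 and TCP1 share 12.6% and 11.1% with other genes. The SD of the log2 ratios was 0.09 within CCT and 0.08 for the pair HSPD1 and HSPE1, against 0.41 over all measured protein-coding genes and 0.42 within HSP70. The value for the pair rests on 2 genes that share exon bases. The 2 wider groups include genes near 1 FPKM, where counting error is larger than for the abundant CCT genes. The CCT median was 0.42, and 0.31 after GC centring, with all 8 genes above 0 in both cases.

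Prefoldin, which delivers clients to CCT, did not show the same uniform difference. In 4 of the 5 measured genes the level was higher, and 2 passed counting error: PFDN5 with 37.8 and 48.1 FPKM for a ratio of 1.27 (1.20 to 1.35), and PFDN4 with 16.3 and 20.3 for a ratio of 1.25 (1.11 to 1.40). PFDN1 had a ratio of 1.05 (0.931 to 1.19) and PFDN6 of 1.04 (0.925 to 1.17). PFDN2, the most abundant, was lower, at 169 FPKM in shControl and 143 in shJAM3 for a ratio of 0.846 (0.791 to 0.906). VBP1, the prefoldin subunit 3 gene whose symbol lies outside the rule, had 18.5 and 28.1 FPKM for a ratio of 1.52 (1.36 to 1.68). The prefoldin median was 0.07, with or without GC centring. Over all measured protein-coding genes 49.4% were higher and 34.5% lay above counting error.

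**Figure D5:**
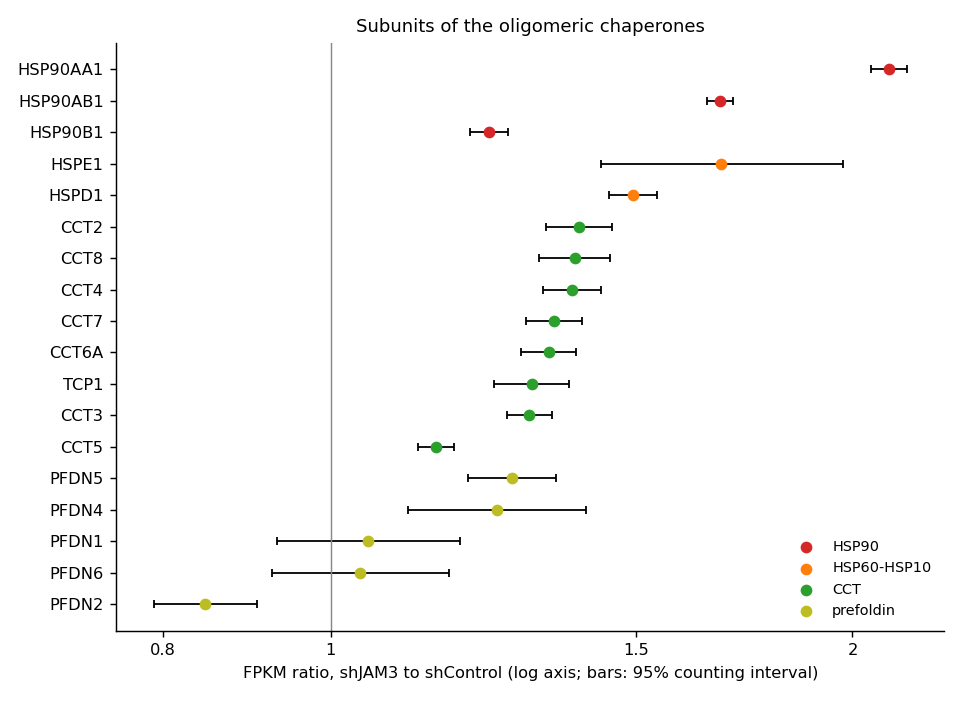
Ratio of FPKM in shJAM3 to shControl (log axis) for each gene of HSP90, HSP60-HSP10, CCT and prefoldin, with 95% counting intervals as bars. The CCT points lie between 1.15 and 1.39, and PFDN2 at 0.846 is the sole point whose interval lies below 1.

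Of the small heat shock proteins, which hold unfolded proteins without using ATP, 4 of 8 were measured. HSPB8, a partner of the co-chaperone BAG3 in selective autophagy, had the lowest ratio of all measured chaperones. It lies on chromosome 12 at 119178642 to 119221131 and had 31.2 FPKM in shControl and 12.8 in shJAM3 for a ratio of 0.409 (0.371 to 0.450). HSPB1 (HSP27), by far the most abundant of the class, had 322 and 268 FPKM for a ratio of 0.833 (0.806 to 0.859). HSPB1 transcripts have a GC content of 64.3%, the highest of the measured chaperones, and GC centring turned its log2 ratio from -0.26 to 0.12.

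HSPB7 had 12.6 and 12.8 FPKM, and HSPB11, an intraflagellar transport component despite its name, had 3.46 and 4.37 FPKM for a ratio of 1.26 (1.03 to 1.55). The class median was -0.12, but 0.18 after GC centring. HSPB6 had 11 and 2 fragments, HSPB2 had 4 and 0, HSPB9 had 0 and 4, and HSPB3 had 0 and 1. With 3 fragments as the limit that a count of 0 allows, these are at or near the floor of detection.

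J-domain proteins bring clients to HSP70, and 37 of the 45 genes were measured, 20 higher and 17 lower, with a median of 0.03. After GC centring 16 were above 0 and 21 below, with a median of -0.03. Over all measured protein-coding genes 49.4% were higher, and 49.9% were above 0 after GC centring. In class A, which resembles bacterial DnaJ throughout, the cytosolic DNAJA2 was the one gene beyond counting error, with 12.4 and 15.9 FPKM for a ratio of 1.29 (1.18 to 1.40). DNAJA1, the main cytosolic partner of HSPA8 in this class, had 34.3 and 36.1 FPKM for a ratio of 1.05 (0.980 to 1.13). The mitochondrial DNAJA3 had a ratio of 0.985 (0.945 to 1.03) and DNAJA4 a ratio of 1.06 (0.936 to 1.21). The class median was 0.07, or 0.01 after GC centring.

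Class B had the largest share of lower genes among the J-domain classes. Of 9 measured genes 6 were lower, and each of the 6 passed counting error. Among all measured protein-coding genes 50.6% were lower and 36.8% lay below counting error. The class median was -0.13, or -0.15 after GC centring. DNAJB2, which binds ubiquitin and directs clients towards the proteasome, had 15.3 FPKM in shControl and 6.51 in shJAM3 for a ratio of 0.426 (0.387 to 0.468). DNAJB1, the heat-inducible HSP40, had 40.8 and 35.8 FPKM for a ratio of 0.879 (0.829 to 0.933). DNAJB6, which restrains protein aggregation, had a ratio of 0.908 (0.834 to 0.988).

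Of 4 measured class B genes of the endoplasmic reticulum, 3 lay below counting error and DNAJB14 within it. The share below it over all measured protein-coding genes was 36.8%. DNAJB9 (ERdj4), which unfolded protein signalling induces, had 6.63 and 4.69 FPKM for a ratio of 0.708 (0.591 to 0.846). DNAJB11 (ERdj3), a luminal partner of BiP, had a ratio of 0.789 (0.711 to 0.876), and other genes overlap 23.2% of its exon bases. The membrane protein DNAJB12 had a ratio of 0.908 (0.838 to 0.985), and its GC-centred log2 ratio was 0.03. On the higher side DNAJB5 alone passed counting error, with 101 and 160 fragments for a ratio of 1.46 (1.13 to 1.89). DNAJB4 and DNAJB14 had ratios of 1.07 (0.908 to 1.27) and 1.04 (0.860 to 1.26).

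Class C holds J-domain proteins with specialised roles, and its 24 measured genes ranged widely, 14 higher and 10 lower, with a median of 0.11, or -0.02 after GC centring. DNAJC12, a co-chaperone of the aromatic amino acid hydroxylases, had the highest level of the class, at 35.4 FPKM in shControl and 71.4 in shJAM3 for a ratio of 2.01 (1.88 to 2.16). It lies on chromosome 10 at 67796665 to 67838166. Its GC content is 39.3%, and its log2 ratio was 0.80 after GC centring.

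Class C includes genes with roles at the ribosome and in splicing. DNAJC2, the ribosome-bound partner of HSPA14, had 4.18 and 6.81 FPKM for a ratio of 1.63 (1.45 to 1.84). DNAJC21, which takes part in maturation of the large ribosomal subunit, had a ratio of 1.20 (1.12 to 1.29) and a GC-centred log2 ratio of 0.05, and DNAJC8, a spliceosome-associated protein, had 29.6 and 43.3 FPKM for a ratio of 1.46 (1.36 to 1.57). DNAJC17, also linked to splicing, was lower at 0.756 (0.617 to 0.926), and other genes overlap 26.1% of its exon bases.

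Of 4 measured mitochondrial class C genes, 2 lay above counting error, 1 below and 1 within it. The shares over all measured protein-coding genes were 34.5% above and 36.8% below. DNAJC19, of the import motor, had a ratio of 1.47 (1.23 to 1.75), its relative DNAJC15 of 1.15 (0.919 to 1.44), and DNAJC30 of 1.78 (1.33 to 2.39) on 73 and 141 fragments. DNAJC11, which associates with the inner-membrane MICOS complex, had a ratio of 0.884 (0.808 to 0.967), and other genes overlap 27.9% of its exon bases. After GC centring DNAJC15 and DNAJC11 were below 0, at log2 ratios of -0.08 and -0.01. In the endoplasmic reticulum DNAJC10 (ERdj5), a disulfide reductase, had 3.72 and 6.55 FPKM for a ratio of 1.76 (1.64 to 1.88). DNAJC3 (p58IPK) and DNAJC1 were within counting error at 0.944 (0.861 to 1.04) and 0.967 (0.842 to 1.11).

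The lowest ratios in class C belonged to DNAJC5, DNAJC17 and DNAJC9. DNAJC5, the cysteine string protein of secretory vesicles, had 34.5 and 25.4 FPKM for a ratio of 0.737 (0.697 to 0.779). DNAJC9, a chaperone of histones H3 and H4, had 12.9 and 9.99 FPKM for a ratio of 0.774 (0.697 to 0.860), and other genes overlap 29.1% of its exon bases. DNAJC14, whose exon bases are 58.1% shared, had a ratio of 0.879 (0.791 to 0.977).

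For the remaining class C genes ratios ran from 0.903 to 1.29. The endosomal DNAJC13 had a ratio of 1.09 (1.02 to 1.16), and its log2 ratio turned from 0.11 to -0.07 on GC centring. DNAJC4, at 1.27 (1.02 to 1.59) with a GC-centred log2 ratio of 0.48, was the only other one above counting error. DNAJC6, DNAJC7, DNAJC16, DNAJC18, DNAJC22, DNAJC24 and DNAJC25 were within it, with ratios from 0.903 for DNAJC22 to 1.29 for DNAJC25. Not measured were DNAJC27, DNAJC28, DNAJC5G, DNAJB13, DNAJB7, DNAJB8 and the HSP70 relative HSPA12B, with at most 41 fragments in a library. DNAJC5B and the read-through gene DNAJC25-GNG10 had no fragment in either.

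The genes were also set side by side by compartment, with no test of a difference between compartments. Residence was taken from a list written for 63 of the 86 genes. In the endoplasmic reticulum 3 of 10 measured genes were higher, with a median of -0.06, or -0.23 after GC centring. HSP90B1 and DNAJC10 lay above counting error, and HSPA5, DNAJB9, DNAJB11 and DNAJB12 below it. Among all measured protein-coding genes 49.4% were higher, 34.5% lay above counting error and 36.8% below. In the cytosol or nucleus 28 of 42 were higher with a median of 0.21, or 0.09 after GC centring. In mitochondria 6 of 8 were higher, with a median of 0.32, or 0.15 after GC centring. Summed FPKM was 611 in shControl and 607 in shJAM3 for the reticulum genes, and 239 and 304 for the mitochondrial genes. Of the measured genes with the 3-unit heat shock element, HSPA8, HSP90AA1, HSP90AB1 and HSPD1 had log2 ratios of 1.14, 1.06, 0.74 and 0.57, while DNAJA1 and DNAJB6 had 0.07 and -0.11.

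The shorter heat shock element of 2 units, GAANNTTC or TTCNNGAA, was found in 13.5% of all promoters. Counted by gene, it was found in 16.2% of all 27305 genes with a promoter and in 26 of the 76 chaperones (34.2%). Every 3-unit match contains a 2-unit match. Measured chaperones with a 2-unit match had a median log2 ratio of 0.10 (n = 22) and those without one 0.18 (n = 43). After GC centring the order turned, with medians of 0.062 and 0.055. HSPA1A, HSPA1B, DNAJB1 and HSPB1 were among those with a match. Of the 34 other measured protein-coding genes with a 3-unit match 23 were higher, with a median of 0.06, or 0.0081 after GC centring. Among all measured protein-coding genes 49.4% were higher, and their median was -0.01, or 0 after GC centring.

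Genes that work with the chaperones were taken from lists drawn up for this comparison. HSF1, the main heat shock factor, had 34.2 FPKM in shControl and 27.4 in shJAM3 for a ratio of 0.802 (0.759 to 0.847). Its transcript is GC-rich at 64.7%, and GC centring turned its log2 ratio from -0.31 to 0.19. HSF2 had 7.71 and 5.28 FPKM for a ratio of 0.685 (0.577 to 0.813), and stayed below 0 after centring at -0.66. HSBP1, which binds heat shock factor trimers, had a ratio of 1.37 (1.26 to 1.49). Of the 5 measured genes in this list 2 were higher, against 49.4% of all measured protein-coding genes. The list median was -0.31, or 0.05 after GC centring.

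Genes known to be induced through HSF1 went both ways. Of 25 measured, 16 were higher and 9 lower, with a median of 0.13, or 0.12 after GC centring, and 15 of the 25 are chaperones already described. The furthest from 0 were HSPB8 and HSPA8, in opposite directions. Of the 10 genes in the list outside the chaperone set 8 were higher and 7 lay above counting error, with a median of 0.19. The shares among all measured protein-coding genes were 49.4% higher and 34.5% above counting error.

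Co-chaperones of HSP90 and HSP70 were split, 13 of 21 measured being higher, against 49.4% of all measured protein-coding genes. Their median was 0.23, or 0.14 after GC centring. PTGES3 (p23), which stabilises the closed form of HSP90, had 90.6 FPKM in shControl and 137 in shJAM3 for a ratio of 1.51 (1.45 to 1.56). STIP1 (HOP), the adaptor between HSP70 and HSP90, had 62.2 and 85.4 FPKM for a ratio of 1.37 (1.32 to 1.43), and AHSA1, which stimulates the HSP90 ATPase for a ratio of 1.31 (1.21 to 1.42). UNC45A, a myosin and HSP90 co-chaperone, was lower, with a ratio of 0.666 (0.629 to 0.705). The kinase adaptor CDC37 had a ratio of 0.927 (0.874 to 0.984).

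Of 14 measured exchange factors of HSP70, 3 of them chaperones already described, 9 were lower, against 50.6% of all measured protein-coding genes. The list median was -0.23, or -0.08 after GC centring, when 8 were below 0. BAG1 had the largest difference, with 35.0 FPKM in shControl and 18.3 in shJAM3 for a ratio of 0.522 (0.495 to 0.551). BAG5 differed the other way, with 9.92 and 16.2 FPKM for a ratio of 1.63 (1.49 to 1.78). BAG3, the partner of HSPB8, had a ratio of 0.900 (0.804 to 1.01), within counting error.

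Genes related to prefoldin and CCT formed 3 lists. All 10 measured genes of the prefoldin-like and R2TP list, which assembles RNA polymerases and other large complexes, were above 0, 7 of them beyond counting error. Among all measured protein-coding genes 49.4% were above 0 and 34.5% above counting error. The list median was 0.31, or 0.34 after GC centring, when 9 of its genes were above 0 and URI1 was at -0.15. The furthest were VBP1 and RPAP3, the latter with a ratio of 1.54 (1.37 to 1.72). The chaperonin-like genes BBS10, MKKS and BBS12 were also above 0, with ratios of 1.62 (1.29 to 2.04), 1.74 (1.37 to 2.20) and 1.06 (0.776 to 1.45), but BBS12 was at -0.13 after GC centring. Of 9 measured CCT co-factors, 5 of them prefoldin genes, 6 were higher, with a median of 0.07 with or without GC centring. This list also holds VBP1, and in it TXNDC9 had a ratio of 1.49 (1.26 to 1.76).

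Folding factors of the organelles outside the set showed little common direction. Of 18 measured endoplasmic reticulum genes 7 were higher, against 49.4% of all measured protein-coding genes. Their median was -0.05, or -0.04 after GC centring. FKBP2, a prolyl isomerase, had a ratio of 0.689 (0.622 to 0.763), and PDIA4, a disulfide isomerase, one of 1.37 (1.32 to 1.43). Of 17 measured mitochondrial folding and quality-control genes, which include 4 of the chaperones, 11 were higher, with a median of 0.08, or 0.04 after GC centring. HSCB, a J-domain protein of iron-sulfur cluster assembly whose symbol lies outside the rule, had 6.63 and 12.1 FPKM for a ratio of 1.82 (1.49 to 2.24). LONP1, the matrix protease, was lower, at 96.9 and 61.3 FPKM for a ratio of 0.633 (0.611 to 0.656). No crystallin-type gene outside the rule was measured.

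Many chaperone genes have processed copies in the genome, and 101 pseudogenes named after members of the set were listed. Of these 23 had a fragment, with 200 fragments in shControl and 349 in shJAM3, against 183014 and 248173 fragments of the genes themselves. HSP90AA2P had 28 and 85 fragments, or 0.287% and 0.382% of the fragments of HSP90AA1. HSP90AB3P had 24 and 62, and HSPD1P1 had 93 and 120. The sources used here do not say how fragments matching several places were counted.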

How the data were processed

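The authors deposited 1 table of FPKM for 2 libraries of poly(A)-selected RNA, with gene lengths and coordinates per the file headers. Among the tools in the submitters' processing notes, whose roles are not stated, are HISAT2 2.0.5 and featureCounts 1.5.0-p3. The genome build is not given there. All 58735 gene IDs, positions and lengths matched GENCODE 29 (GRCh38). FPKM times length was a whole number of fragments in 100% of values (tolerance 0.001), and those fragments gave the exact conditional binomial 95% intervals (scipy 1.17.1). The FPKM imply library sizes of 15361731 in shControl and 16678451 in shJAM3. These differ from the totals of fragments assigned to genes, 15570262 and 16455079, so the FPKM were not scaled to those totals. The median measured chaperone had 939.5 fragments in shControl and 828 in shJAM3.

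Where a symbol had several rows, the row of highest average FPKM was used. Log2 ratios used a pseudocount of 1 FPKM. Conditions could not be tested with 1 library each, and a 2-fold rule stood in for a test. GC centring subtracted the median of 20 GC bins. Intervals were tested on simulated data. Alternatives were another pseudocount, filter, scaling, interval level and class summary, GC centring, and leaving out overlapping or near-identical genes. The genes, lists and classes were chosen with earlier results of these data known. Named were JAM3, all members past the 2-fold rule, in each class the 3 most abundant and the 3 highest and lowest ratios, all HSP90, HSP60-HSP10, CCT and prefoldin genes, some fixed genes, and the 2 furthest genes of each list. Further members and list genes were named after their values were seen.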

Additional observations from a re-analysis of the deposited data

How the results depend on the processing

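A pseudocount of 0.1 FPKM, no filter on low values, and centring on the median of all measured protein-coding genes changed no class median beyond the counting error of its middle gene. Scaling to the fragment totals gave an HSP90 median of 0.78. After GC centring 1 chaperone was at least 2-fold higher and 1 at least 2-fold lower, the HSP110, HSP90 and CCT medians were 0.11, 0.67 and 0.31, and the small heat shock median turned to 0.18, as did that of the heat shock factors to 0.047. Of the measured chaperones whose counting interval excluded 1, 3 changed sign on GC centring, HSPB1 to 0.12, DNAJB12 to 0.028 and DNAJC13 to -0.072. Several of those within counting error also changed sign, among them DNAJB14 (-0.21), DNAJB4 (-0.15), DNAJA1 (-0.11) and HSPA1A (0.095). The DNAJC median likewise changed sign on GC centring, to -0.021. At a mean of at least 5 FPKM the HSP110 median turned to -0.0087, with HSPA4L left out, and the small heat shock and DNAJB medians were -0.26 and -0.30. Within counting error, the HSP70 and DNAJC medians also changed sign there, to -0.023 and -0.014. Class means were 0.17 for HSP110, 0.70 for HSP90 and -0.30 for small heat shock proteins. Leaving out HSPA1A, HSPA1B and genes with at least 10% shared exon bases changed no class median beyond that error, the furthest being prefoldin at 0.18. A 99% interval left 29 chaperones above and 14 below 1. DNAJC12 passed the 2-fold rule with the smaller pseudocount (1.01) and with scaling to totals (1.03). No paired analysis was possible because each group has 1 library. Other causes were not tested, and with no second library the spread between cultures is unknown.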
